A study of Mus musculus with 35 samples.

Results

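The cytosolic ribosomal proteins were represented on the arrays by 54 of 15967 genes, measured by 71 of 24620 probes. Members were the probes whose annotated symbol begins with Rpl or Rps and a digit, or is Rpsa, Rplp0, Rplp1, Rplp2 or Fau, with the ribosomal S6 kinases left out. RNA came from punches of the hippocampus (18 arrays) and the amygdala (17 arrays) of male, test-naive mice aged 3 to 4 months, hybridized to Illumina MouseRef-8 bead arrays, 1 sample per array. The 4 groups were hippocampus of A/J (n = 9) and of C57BL/6J (n = 9), and amygdala of A/J (n = 8) and of C57BL/6J (n = 9), all of them untreated inbred animals. Which samples of different regions shared an animal is not stated. A punch holds neurons, glia and vessels together, so fewer cells of a type and less RNA per cell cannot be told apart in any value given here.

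The cytosolic ribosome translates messenger RNA into protein. Its large subunit joins amino acids and holds the exit tunnel, and its small subunit holds the messenger and reads the codons. Each subunit is a shell of proteins on ribosomal RNA, and nearly every protein is present in 1 copy, apart from the acidic stalk of Rplp0, Rplp1 and Rplp2, which recruits the elongation factors. In neurons ribosomes are found in the cell body and also in dendrites and axons. The messengers of these proteins are among the most abundant of any cell and typically begin with a run of pyrimidines, through which their translation follows nutrient signals. A few proteins have a second gene (a paralog) with a restricted pattern, such as Rpl3l in striated muscle.

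A probe counted as detected on an array when its detection p was under 0.01. Testing required detection on 8 arrays or more, as many as the smallest group holds. Of the 71 probes, 60 passed, for 49 genes, and 47 of these were detected on all 35 arrays. The 11 others were 9 probes detected on no array, a Rpl37 probe detected on 4 arrays and a Rpsa probe detected on 1. Rpsa, Rpl17, Rpl39l, Rps19 and Rpl36al had no tested probe, whereas Rpl37, Rplp0, Rpl4 and Rpl23 had another probe that was tested. The probes covered 30 of 46 large-subunit genes (29 tested) and 17 of 33 small-subunit genes (15 tested). The symbol rule also took in Rps19bp1, which codes for a protein that binds Rps19 and is not itself a ribosomal protein. All 71 symbols equalled the RefSeq symbol of the same gene. Many ribosomal protein genes have processed pseudogenes of nearly the same sequence, and binding of their transcripts to these probes was not tested.

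A few sequences are shown to make the measurement concrete. The first are the bases that the beads carry for Rpl8, a large-subunit protein close to the site of peptide bond formation, and Rps27l, a paralog of the small-subunit protein Rps27. Their signals followed the number of detected probes per array in opposite directions, as given further below. The 50 bases are in lower case throughout because no part of a probe is singled out, and for Rpl3l, whose signal differed between the strains, the first 30 bases are given.
Rpl8 probe: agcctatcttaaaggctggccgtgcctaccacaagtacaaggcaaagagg
Rps27l probe: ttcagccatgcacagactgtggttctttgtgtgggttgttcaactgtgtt
Rpl3l probe: gcacacctgggatgtagcactcttgctatc

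The second set shows the pyrimidine run at the start of transcription, in the RefSeq promoter table (GRCm38.p6), as 20 bases before and 10 bases from the annotated start on the strand of the gene. A run was counted when it began with C, held at least 5 bases of C or T, and began within 5 bases of the start. Only the strand of the gene was searched. The run is in capitals.
Rps9, chr7:3704021-3704050, + strand: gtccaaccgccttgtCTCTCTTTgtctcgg
Rpl38, chr11:114668560-114668589, + strand: ccggaagcggaagcctcgttCTTTCCCCgt
Rpl22l1, chr3:28805488-28805517, + strand: cgtgcgtgcggcgcaagcccgttCTCTTCC
Rpl22, chr4:152324416-152324445, + strand: atcagcgctgcttctggaatgttccagctc
Such a run was found in 18 of the 44 member genes in the table (40.9%), in 16 of 37 genes of the core subunit proteins (43.2%), and in 3767 of 17491 protein-coding genes (21.5%). No run met the rule in the Rpl22 window. A run is a feature of the letters and depends on where the start is annotated. It was not measured by these arrays.

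Array quality varied widely. The number of detected probes ran from 6099 to 11039 per array, with medians of 9506 in A/J hippocampus, 9023 in A/J amygdala, 8696 in C57BL/6J hippocampus and 7944 in C57BL/6J amygdala. Between 50 and 60 of the 71 ribosomal protein probes were detected per array. The arrays lay on 11 chips, and the chip IDs fall into sets with the same first digits, called lots here (21 and 14 arrays), each holding all 4 groups. Marker genes were set beside the tissue labels. All 5 tested hippocampus markers were higher in hippocampus and all 5 tested amygdala markers were lower there, by limma at an adjusted p under 0.01. The lists were chosen with earlier results of these data known, so this outcome is no independent check of the labels.

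Region was compared as hippocampus minus amygdala, averaged over the strains, on log2 normalized signals. Only Rpl22 of the 60 tested probes was higher in hippocampus, against 6.42% of all 10408 tested probes, and none was lower, against 5.76% (limma, adjusted p under 0.01). At an unadjusted p under 0.05, 2 members were higher and 3 lower, together 8.33% of the members against 26.5% of all tested probes. The median difference of the members was −0.04 on the log2 scale, against 0.00 for all tested probes, and the median size of a difference was 0.09 against 0.16. Standard errors were of like size in both (medians of 0.13 and 0.15). Apart from Rpl22, the member differences ran from −0.51 to 0.34.

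Rpl22 is a large-subunit protein that is not needed for translation in general and is known for its part in mouse T-cell development. In A/J hippocampus its signals ran from 11.02 to 11.50 with a median of 11.16 (log2), and in A/J amygdala from 9.85 to 10.55 with a median of 10.20. In C57BL/6J hippocampus they ran from 10.71 to 11.30 with a median of 10.88, and in C57BL/6J amygdala from 10.003 to 10.61 with a median of 10.40. Every hippocampus array was above every amygdala array. Regions that did not overlap were found for this 1 member and for 1.31% of all tested probes. The difference was 0.77 ± 0.07 (SE), a 1.70-fold higher level in hippocampus, with an adjusted p of 2.5e-10.

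Within A/J the Rpl22 difference was 1.01 ± 0.11 (SE, adjusted p = 5.1e-09), and within C57BL/6J it was 0.53 ± 0.10 (SE, adjusted p = 3.2e-04). The difference between these values, 0.48 ± 0.15, did not pass the threshold (adjusted p = 0.322, limma). Rpl22 was higher in hippocampus on each of the 10 chips that held both regions, by 0.48 to 1.23. It was 0.79 higher in lot 1 alone and 0.73 higher in lot 2 alone (limma, adjusted p = 1.6e-05 and 0.00982), and 0.78 higher with chip as a term of the fit. Its slope on the number of detected probes was −0.05 ± 0.02 (SE) per 1000 probes, which did not pass the threshold (adjusted p = 0.0666).

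Markers of other cells moved with region as well. Of 9 tested oligodendrocyte markers 8 were lower in hippocampus, and the log2 of their summed signal ran from 13.52 to 15.46 in hippocampus and from 14.33 to 15.87 in amygdala. Of 5 tested markers of the thalamus, which lies next to the hippocampus, 4 were higher in hippocampus, with summed signals of 11.10 to 13.41 against 9.77 to 12.06. Of 3 tested choroid plexus markers 1, Clic6, was lower in hippocampus, by −2.66 ± 0.24 (SE). Ttr and Kl had the opposite sign, 0.68 ± 0.72 and 0.22 ± 0.20 (SE), and did not pass. Summed signals of the list were 7.16 to 13.72 against 8.28 to 14.13. Each tested gene of these lists was detected on some arrays. Their part in the Rpl22 difference was not tested.

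The paralog Rpl22l1 is raised in mice that lack Rpl22. Its probe was detected on only 8 of the 35 arrays, and its region difference was −0.18 ± 0.21 (SE, limma, adjusted p = 0.687). Its values ran from 4.52 to 5.93 in the hippocampus arrays and from 4.64 to 7.25 in the amygdala arrays, and the groups overlapped. A value near 5 lies at the lowest level that an array could detect, which was 5.05 to 6.56 depending on the array.

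Strain was compared as A/J minus C57BL/6J over both regions together. The authors state that the probes were designed on C57BL/6J, and they expect C57BL/6J to hybridize better where a probe holds a strain variant. They report known variants more often in their group of strain-separating probes than in those that separated the regions. Sequencing found a variant in most of the further strain-separating probes that they checked. Variants under the probes of this report were not tested, so a lower signal in A/J need not be a lower transcript level. Of the 60 tested members only Rpl3l was higher in A/J, against 2.05% of all tested probes, and 2 probes, of Rpl29 and Rps9, were lower, against 3.84%. The median difference was 0.00 for the members and 0.05 for all tested probes, and the median size was 0.13 against 0.17. With an unadjusted p under 0.05 were 18.3% of the members and 20.1% of all tested probes. No member separated the 17 arrays of A/J from the 18 of the other strain, as 1.18% of all tested probes did.

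Rpl29 is a small basic large-subunit protein that also binds heparin and heparan sulfate. Its gene lies at chr9:106428889-106431568 (GRCm38.p6). In A/J hippocampus its signals ran from 4.90 to 5.42 with a median of 5.29, and in A/J amygdala from 4.94 to 5.62 with a median of 5.08. In C57BL/6J hippocampus they ran from 4.83 to 8.30 with a median of 7.21, and in C57BL/6J amygdala from 5.24 to 7.85 with a median of 6.60. All A/J arrays were thus low and close together, whereas the C57BL/6J arrays were spread over a wide range that reached down to the A/J level. The lowest C57BL/6J values, 4.83, 5.24, 5.26 and 5.92, came from arrays with 6960, 6555, 6099 and 6243 detected probes. The C57BL/6J arrays with 7000 or more were at 6.36 or higher, above every A/J array. The probe rose with the number of detected probes, by 0.28 ± 0.07 (SE) log2 units per 1000 (limma, adjusted p = 0.00115). Detection reached 5 of the 17 arrays from A/J and 14 of the 18 from C57BL/6J.

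The Rpl29 difference was −1.69 ± 0.25 (SE), a 3.22-fold lower signal in A/J (limma, adjusted p = 4.7e-06). It was −1.72 ± 0.35 in hippocampus and −1.65 ± 0.37 in amygdala (limma, adjusted p = 9.9e-04 and 0.00217). A/J was lower on each of the 7 chips with both strains, with differences from −2.91 to −0.24. In lot 1 alone the difference was −1.98 (adjusted p = 1.2e-04), but in lot 2 alone it was −0.86 and did not pass (adjusted p = 0.245). Leaving out the 8 arrays with under 7000 detected probes gave −2.23, and the authors' processed values gave −0.10, which also passed (limma, adjusted p = 4.1e-11 and 6.9e-04). Since the A/J means lay near the lowest detected level, the size of the difference holds values near background.

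Rpl3l is the striated-muscle paralog of Rpl3, a protein at the catalytic centre of the large subunit, and its gene lies at chr17:24727826-24736143 (GRCm38.p6). Its signals ran from 4.95 to 6.09 with a median of 5.91 in A/J hippocampus and from 5.90 to 6.57 with a median of 6.16 in A/J amygdala. They ran from 4.85 to 5.90 with a median of 5.10 in C57BL/6J hippocampus and from 4.63 to 5.92 with a median of 5.35 in C57BL/6J amygdala. The strains overlapped: 6 of the 17 A/J arrays lay within the range of C57BL/6J, and 15 of the 18 C57BL/6J arrays lay above the lowest A/J array, a hippocampus array at 4.95. It was detected on 14 of the 17 arrays from A/J, and in C57BL/6J on 5 of 18.

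The Rpl3l difference was 0.78 ± 0.12 (SE), a 1.71-fold higher level in A/J (limma, adjusted p = 3.9e-06). It was 0.62 ± 0.16 in hippocampus, which did not pass (adjusted p = 0.013), and 0.93 ± 0.17 in amygdala, which did (limma, adjusted p = 1.3e-04). The difference between these was not past the threshold (interaction −0.31 ± 0.23, adjusted p = 0.713). A/J was higher on all 7 chips with both strains, by 0.39 to 1.36. Lot 2 alone gave 0.87 without passing (adjusted p = 0.022), and the authors' processed values gave 0.03, which passed (limma, adjusted p = 8.1e-04).

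Rps9, a small-subunit protein that binds early to the ribosomal RNA, had 5 tested probes and its gene lies at chr7:3703954-3706897 (GRCm38.p6). In the first of them, A/J hippocampus ran from 9.38 to 10.81 with a median of 9.61 and A/J amygdala from 9.25 to 10.98 with a median of 9.65. C57BL/6J hippocampus ran from 9.87 to 11.20 with a median of 10.27 and C57BL/6J amygdala from 9.70 to 11.44 with a median of 10.36. The strains overlapped over most of their ranges. The difference was −0.68 ± 0.18 (SE) with an adjusted p of 0.00995, just inside the threshold, and it missed the threshold under 9 of 12 alternatives.

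The other 4 Rps9 probes had strain differences of 0.17, 0.28, −0.04 and 0.21, each with an SE of 0.09 to 0.11, and none passed. Of the 5 probes only the first thus had a called strain difference, and 3 of the others had the opposite sign. The first probe also fell with the number of detected probes, by −0.27 ± 0.04 (SE) log2 units per 1000 (limma, adjusted p = 1.1e-06), while the other 4 had slopes of 0.02 to 0.05 that did not pass. With that number as a covariate its strain difference was −0.52 (limma, adjusted p = 0.00284). Which transcript each probe binds was not examined.

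Differences over 0.5 in size that missed the threshold were those of Rps3a1, a small-subunit protein, and a Rpl27a probe by strain and of Rpl7 by region. Rps3a1 ran from 5.99 to 8.43 in A/J and from 6.96 to 9.61 in C57BL/6J, with a strain difference of −0.74 ± 0.24 (SE, limma, adjusted p = 0.0486). It passed with chip as a term, at −1.29 (adjusted p = 3.9e-07), and with detected probes as a covariate, at −0.88 (limma, adjusted p = 0.00327). The Rpl27a probe of lower signal had a strain difference of −0.56 ± 0.24 (SE, adjusted p = 0.159), and it passed with array weights (−0.73, limma, adjusted p = 0.00313). Rpl7 had a region difference of −0.51 ± 0.28 (SE, limma, adjusted p = 0.257), and its arrays overlapped over most of their range.

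Beside the strain differences, 1 of 5 tested microglia markers (C1qb) was lower in A/J, with summed signals of the list of 9.76 to 10.62 in A/J and 9.65 to 11.34 in C57BL/6J. Of 3 tested blood markers 1 (Hbb-b2) was higher in A/J, with summed signals of the list of 12.11 to 14.09 against 11.55 to 13.59. The Hbb-b2 means were 8.49 and 8.00 in A/J hippocampus and amygdala, and 4.85 and 4.89 in those of C57BL/6J, near the lowest detected level. Hba-a1 and Alas2 had strain differences of 0.09 and −0.07 and did not pass. Whether the Hbb-b2 difference follows blood content was not tested. None of the 9 tested oligodendrocyte, 4 tested astrocyte and 3 tested endothelial markers differed by strain past the threshold. The part of these cells in the strain differences was not tested.

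No member passed the test of the region by strain interaction (limma, 0 of 60, against 0.0673% of all tested probes). At an unadjusted p under 0.05 there were 2, which is 3.33% of the members against 7.67% of all. The median interaction was 0.17 for the members and −0.03 for all tested probes, and 43 of the 60 values were above 0, against 4856 of 10408. The median region difference of the members was 0.07 in A/J, where 39 of 60 were above 0, and −0.13 in C57BL/6J, where 13 were. For all tested probes these medians were 0.01 and 0.00. The median interaction of the members was above 0 under each of the 12 alternatives. It ran from 0.10 with the authors' processed values to 0.35 in lot 2 alone, while that of all tested probes ran from −0.09 to 0.00. The 12 alternatives refit the same arrays or a part of them, and all members share these arrays. The counts of members and the agreement between settings are therefore no independent test. In lot 2 alone the median region difference of the members was −0.01 in A/J, with 30 of 60 above 0, and −0.33 in C57BL/6J. Lot 2 held only 3 hippocampus and 2 amygdala arrays of C57BL/6J, against 5 and 4 of A/J. Both of these C57BL/6J amygdala arrays had under 7000 detected probes (6555 and 6243).

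Within a single strain or region the calls were few. Of the 60 members 1, Rpl22, passed for region within A/J (8.63% of all tested probes) and within C57BL/6J (6.10%). Rpl29 was the 1 member past the threshold for strain within hippocampus (3.38% of all), and Rpl29 and Rpl3l were the 2 within amygdala (4.02%).

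The probes of highest level were those of Rpl41, the smallest ribosomal protein, of the zinc-binding small-subunit protein Rps29, and of Rpl37, Rps21 and Rps14. Means over the 35 arrays were 14.62 for Rpl41, 14.54 for Rps29, 14.25 for Rpl37, 14.15 for Rps21 and 13.99 for Rps14 (log2). The levels of different probes depend on their sequences and are not compared. Quantile normalization gives every array the same set of highest values, so differences of probes at the top of the range are bounded and their small spread says little about the messengers. The 4 group means of Rpl41 ran from 14.58 to 14.67, with SDs of 0.11 to 0.19. None of these 5 probes passed for region or strain, and the widest of their differences was −0.27 ± 0.10 (SE) for Rps14 by strain (limma, adjusted p = 0.0758).

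Among the tested probes of lowest level were Rpl3l and Rpl22l1, described above, and probes of Rps24, Rpl4 and Rpl21. Rps24, a small-subunit protein whose human gene is mutated in Diamond-Blackfan anaemia, was detected on 8 arrays and had a mean of 5.25. Rpl4, which lines the exit tunnel, was detected on 10 arrays by its tested probe and on none by its other probe. Rpl21 had one probe detected on 20 arrays and another detected on 28. Both Rpl21 probes had lower values in A/J, by −0.44 ± 0.16 and −0.45 ± 0.13 (SE), and neither passed (limma, adjusted p = 0.0832 and 0.0253). The first passed with the arrays under 7000 detected probes left out (−0.59, adjusted p = 0.00145) and with detected probes as a covariate (−0.58, adjusted p = 3.8e-05), and the second with array weights (−0.53, adjusted p = 5.8e-04, limma). In lot 2 alone the first had a difference of 0.02. Low detection of 1 probe says little about the gene, since Rpl37 and Rpl23 each had a bright probe beside 1 or more that were not detected.

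Of the acidic stalk only Rplp0, the protein on which the other stalk proteins assemble, was on the array. One of its probes was detected on no array. The other had group means of 6.79 ± 0.34 and 7.01 ± 0.40 (SD, n = 9 and 9) in the hippocampus of A/J and C57BL/6J, and of 6.48 ± 0.33 and 6.64 ± 0.40 (SD, n = 8 and 9) in their amygdala. The region difference was 0.34 ± 0.13 (SE) and did not pass (limma, adjusted p = 0.0593).

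Of the other paralogs, Rps27l, whose transcription p53 raises, ran from 10.17 to 12.07 over the 35 arrays. Its region and strain differences were 0.13 ± 0.19 and 0.02 ± 0.19 (SE), well within the spread of the arrays. Rpl7l1, a relative of Rpl7, had probes detected on 35 and 26 arrays. Their region differences were 0.08 ± 0.09 and −0.02 ± 0.18 (SE) and their strain differences −0.14 ± 0.09 and −0.16 ± 0.18, none past the threshold. The pair of Rpl23 probes likewise had region differences of either sign close to 0, −0.03 and 0.03.

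Many ribosomal protein probes followed the number of detected probes of the array, about as often as all tested probes did. This number was fitted beside the 4 group means with limma, and what sets it was not tested. Of the 60 members, 13 rose with it, against 31.6% of all tested probes, and 23 fell, against 27.2%. The median slope was −0.05 log2 units per 1000 detected probes for the members and 0.01 for all tested probes, and the median size 0.13 and 0.15. Of the large-subunit genes, counted by their brightest tested probe, 7 rose and 10 fell, and of the small-subunit genes 2 rose and 8 fell.

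Some markers of other cells moved with the same number. All 3 tested blood markers fell, against 27.2% of all tested probes, among them Hba-a1 by −0.33 and Alas2 by −0.42 log2 units per 1000. Of 9 oligodendrocyte markers 4 rose, against 31.6% of all tested probes, among them Mbp by 0.46 and Mog by 0.46 (limma, adjusted p under 0.01). The slopes of Mobp, Cnp, Mal, Cldn11 and Opalin ran from −0.03 to 0.04 and did not pass. The log2 of the summed signal of the blood markers ran from 12.87 to 13.95 in the 8 arrays with under 7000 detected probes and from 11.55 to 14.09 in the other 27 arrays. That of the oligodendrocyte markers ran from 13.52 to 14.88 and from 14.16 to 15.87. The part of these cells in the slopes of the ribosomal proteins was not tested.

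The steepest rises were those of Rpl13 and Rpl7, both large-subunit proteins. Rpl13 had a slope of 0.45 ± 0.05 (SE, adjusted p = 1.3e-09, limma). In the 8 arrays with under 7000 detected probes its signals ran from 11.67 to 12.59 with a median of 11.91, and in the other 27 arrays they ran from 11.63 to 13.96 with a median of 13.56. In the 18 of these at or above the median number of 8711 they ran from 13.33 to 13.86. The arrays with few detected probes were thus low, and some arrays between 7000 and 8711 were as low. Rpl7 had a slope of 0.40 ± 0.07 (SE, adjusted p = 6.3e-06), with signals of 8.72 to 10.06 in the same 8 arrays and of 8.73 to 11.83 in the other 27. Rpl8 rose by 0.19 ± 0.03 (SE, adjusted p = 4.9e-06). Both probes of Rps3, a small-subunit protein at the entry of the messenger channel, and both probes of Rpl13a rose, with slopes of 0.12 to 0.28.

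The steepest fall was that of a probe of Rpl38, which mice need for normal patterning of the axial skeleton. This brighter probe fell by −0.39 ± 0.05 (SE, adjusted p = 5.4e-08, limma) and the dimmer Rpl38 probe by −0.29 ± 0.05. Signals of the brighter probe ran from 9.99 to 11.31 in the 8 arrays with few detected probes and from 8.88 to 11.23 in the other 27, and these ranges overlapped. Rps28, a small-subunit protein near the exit of the messenger channel, fell by −0.28 ± 0.03 (SE, adjusted p = 1.8e-09). It ran from 13.49 to 13.68 in the 8 arrays and from 12.11 to 13.63 in the other 27, with medians of 13.54 and 12.67, and from 12.11 to 13.10 in the 18 at or above the median number. Rps27l fell by −0.32 ± 0.04 (SE, adjusted p = 4.7e-08), and its ranges in the 8 and the 27 arrays, 10.98 to 12.01 and 10.17 to 12.07, overlapped.

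Among the 8 genes with more than 1 tested probe, probes of 1 gene did not always move together. Both Rpl23 probes fell, by −0.16 ± 0.05 and −0.21 ± 0.03 (SE, adjusted p = 0.00506 and 4.8e-08, limma). Rpl27a, a large-subunit protein, had a probe that rose by 0.10 ± 0.03 (SE, adjusted p = 0.00143) and another that fell by −0.33 ± 0.06 (SE, adjusted p = 1.4e-05, limma). The rising probe had a mean of 11.74 and was detected on all 35 arrays, and the falling probe had a mean of 6.34 and was detected on 32. One Rpl21 probe rose by 0.25 ± 0.03 (SE, adjusted p = 9.0e-08) while the other had a slope of −0.01 ± 0.05.

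The scaling between arrays bears on these directions. When arrays were shifted to a common median in place of quantile normalization, 33 members rose and 1 fell, beside 79.6% and 2.03% of all tested probes, and the median slope of all tested probes moved from 0.01 to 0.30. Of the 23 falling members 16 kept a slope under 0 and 7 did not, but all 23 stayed below the median of all tested probes, and all 13 rising members stayed above it. With the authors' processed values 11 members rose and 24 fell, beside 31.4% and 23.3% of all tested probes. In lot 1 alone 8 rose and 16 fell, beside 21.5% and 17.6% of all. In lot 2 alone 5 rose and 14 fell, beside 20.2% and 16.1%. Each of the 36 slopes kept its sign in both lots. These 36 were picked in the fit to all arrays, which hold both lots. Their signs and their sides of the median are therefore no independent test. These settings were chosen after the data were seen.

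The summed share of the member probes in the positive signal of an array moved with the same number. It was 6.11% to 7.35% (median 6.75%) in the 8 arrays with under 7000 detected probes and 3.80% to 7.07% (median 4.21%) in the other 27, so the ranges overlapped. In the 18 arrays at or above the median number it was 3.80% to 4.99%. By group its medians were 4.75% in A/J hippocampus, 4.19% in A/J amygdala, 4.61% in C57BL/6J hippocampus and 6.04% in C57BL/6J amygdala. Of the 8 arrays with under 7000 detected probes, 2 came from the hippocampus and 1 from the amygdala of A/J, and 2 and 3 from the same regions of C57BL/6J, and 6 of them belonged to lot 2. Each of the 4 groups held arrays below and above 8711 detected probes. The part of this number in the group values of the share was not tested.

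Genes that work with the ribosome were counted from lists, with the brightest tested probe of each gene. None of 8 tested elongation factors, which carry the growing chain forward, passed for region or strain. With the number of detected probes 7 of them rose, against 31.6% of all tested probes (79.6% with arrays scaled to a common median), among them Eef2 by 0.43 and Eef1a1 by 0.33 per 1000, and 1, Eif5a, fell by −0.27.

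Of 33 tested initiation factors, which bring the messenger and the first tRNA to the small subunit, 2 were higher in hippocampus and 1 was lower in A/J. Among all tested probes these shares were 6.42% and 3.84%. Eif4e3, a cap-binding protein, was higher in hippocampus by 0.56 ± 0.14 (SE, adjusted p = 0.00305, limma) and Eif1b by 0.26 ± 0.06 (SE, adjusted p = 0.00309). Eif4e2, a relative of the cap-binding protein Eif4e that represses translation, was lower in A/J by −0.67 ± 0.07 (SE, adjusted p = 7.8e-09). Its values ran from 7.27 to 8.10 in A/J and from 8.15 to 8.79 in C57BL/6J, without overlap.

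Of 40 tested ribosome biogenesis genes, 2 were higher in hippocampus, against 6.42% of all tested probes, and none differed by strain. Bop1, which is needed to process the ribosomal RNA of the large subunit, was higher by 0.83 ± 0.11 (SE, adjusted p = 4.5e-07, limma). Ubtf, a factor of ribosomal RNA gene transcription, was higher by 0.39 ± 0.11 (SE, adjusted p = 0.00569). Of 6 tested ribosome-associated genes 1 was lower in A/J, against 3.84% of all tested probes. This was Srp9, a subunit of the signal recognition particle, which pauses translation of secreted proteins. Its probe ran from 5.19 to 7.12 in A/J and from 10.02 to 10.83 in C57BL/6J. The difference was −4.29 ± 0.11 (SE, limma, adjusted p = 2.6e-27). Whether A/J holds variants under this probe or that of Eif4e2 was not tested. The ribosomal protein probes held 1 call of 60 by region, against 6.42% of all tested probes higher and 5.76% lower in hippocampus. They held 3 of 60 by strain, against 2.05% higher and 3.84% lower in A/J.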

How the data were processed

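Per the labels and methods, the authors scanned Illumina MouseRef-8 arrays and used BeadStudio to extract signals, less the average negative control bead of each array. The deposited table holds these linear intensity signals, not normalized between arrays, and a detection score per probe (1 minus the detection p-value, where scores of 1 are written with a comma out of place and were read as 1). A second deposited table holds log2 values that the authors transformed and normalized with Lumi. Here the signals were processed with neqc of limma 3.58.1 in R 4.3.3: normexp correction from the detection p-values, an offset of 16, quantile normalization and log2. Region, strain and interaction were contrasts of 4 group means over 35 arrays (lmFit, eBayes), with Benjamini-Hochberg adjustment over 10408 tested probes at 0.01. No array was left out, and no depth beyond the number of arrays and detected probes bears on precision. Replicates are separate samples per the labels. Gene symbols come from the platform annotation (20984 probes with 1 symbol, 1 with several, 3635 with none). Named were the 6 largest called differences by region and strain in each direction, the 5 brightest and 5 dimmest tested members, paralogs, stalk proteins and genes whose probes differed; probes named for their slopes were chosen after their values were seen. Members and lists were chosen with earlier results of these data known. The fit was tested on simulated data.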

Additional observations from a re-analysis of the deposited data

Results flagged for a closer look

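For 23 named probes in 4 groups each (92 groups of 8 or 9 arrays), the highest or lowest array was compared with the others, as its gap to the nearest array over the range of the group. It exceeded the 95% limit of Dixon's test in 12 groups. Chance alone gives about 1 in 20 for independent groups of normally distributed values. Several flagged groups share an array, so the 92 groups are not independent and the count does not show an excess over chance.

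Rpl22l1 had 1 high array in A/J amygdala (7.25 against 4.72 to 5.66 in the others, ratio 0.627). It had 1 in C57BL/6J amygdala as well (7.18 against 4.64 to 5.25, ratio 0.759). Both arrays had a middling number of detected probes (8160 and 7944), but the member probes held 6.55% and 7.07% of their positive signal. The median of this share was 6.75% in the 8 arrays with under 7000 detected probes and 4.21% in the other 27. The dimmer Rpl23 probe had a low array in A/J amygdala (6.62 against 8.06 to 9.09, ratio 0.581), and the same array was lowest for Rps21 (13.79 against 14.09 to 14.34, ratio 0.540). Rpl29 had a high array in A/J amygdala (5.62 against 4.94 to 5.18, ratio 0.635), and Rpl3l a low array in A/J hippocampus (4.95 against 5.72 to 6.09, ratio 0.680), on arrays with 6549 and 6312 detected probes.

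In C57BL/6J hippocampus 1 array with 6960 detected probes was lowest for 2 Rps9 probes (11.61 against 12.38 to 13.02, ratio 0.548, and 11.77 against 12.40 to 13.00, ratio 0.515) and for the dimmer Rpl7l1 probe (4.84 against 5.55 to 6.22, ratio 0.518). Other single low arrays of that group were found for Rpl41 (14.25 against 14.58 to 14.81, ratio 0.582), Rps21 (13.34 against 13.90 to 14.44, ratio 0.505) and Rps29 (14.34 against 14.58 to 14.81, ratio 0.506). Whether these arrays differ for a technical reason was not tested.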

How the results depend on the processing

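No paired analysis was possible because the labels name no animal for a sample and give no numbers that pair samples across regions. The number of members higher in hippocampus was 1, Rpl22, under all 12 alternatives and with 1 probe per gene, at differences of 0.62 to 0.85. Array weights gave 1 member lower in hippocampus, a Rpl27a probe at −0.26. The number higher in A/J was 1 under every setting except lot 2 alone, which gave 0. The number lower in A/J, 2 in the report, was 1 without normexp, with arrays scaled to a common median, with the authors' processed values, in lot 1 alone, with probes detected on at least 1 array, without a filter and with 1 probe per gene. It was 0 in lot 2 alone, 4 with detected probes as a covariate, 5 at an adjusted p under 0.05 and 6 with array weights. With chip as a term it stayed at 2, but Rps3a1 (−1.29) took the place of Rps9, and without the arrays under 7000 detected probes a Rpl21 probe (−0.59) did. No interaction was called under any setting. The counts of members rising and falling with the number of detected probes were 33 and 1 after scaling to a common median (79.6% and 2.03% of all tested probes). They were 8 and 16 in lot 1 alone (21.5% and 17.6%) and 5 and 14 in lot 2 alone (20.2% and 16.1%). Scaling to a common median moved the median strain difference of all tested probes from 0.05 to 0.25 and that of the members from 0.00 to 0.21. Of the region and strain values of single named probes, 538 stayed on the same side of the threshold, 11 lost a call (9 of them of the first Rps9 probe), 3 gained one and none changed sign with a call. The causes were not tested. Probes near the lowest detected level (Rpl29, Rpl3l, Rpl22l1, Rps24, Rpl4) have differences whose size depends on the background. The slope settings were chosen after the data were seen.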
